A study of Mus musculus with 12 samples.

Results

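Messenger RNA of 10 genes of the glial scar matrix was measured in brain tissue of 12 mice. The study's methods name the ischemic hemisphere as the tissue, although the Sham mice had no occlusion. The genes were taken by name from the deposited count table: neurocan (Ncan), brevican (Bcan), aggrecan (Acan), versican (Vcan), tenascin-C (Tnc), tenascin-R (Tnr), the NG2 proteoglycan (Cspg4), the receptor phosphatase Ptprz1, the hyaluronan receptor Cd44 and the link protein Hapln1. All 10 of 10 were found among 39756 listed genes, and all 10 passed the filter on low counts that left 17558 genes for testing. C57BL/6J mice (the strain on the labels), male and aged 9 to 10 weeks by the study's methods, formed 3 groups of 4: Sham (sham operation, saline), Vehicle (ischemia/reperfusion, saline) and LJP (ischemia/reperfusion, Laminaria japonica polysaccharide). In the latter groups the middle cerebral artery was closed by a filament for 45 min and then reopened. LJP, a polysaccharide extract of a brown seaweed in saline, was given into the stomach once daily for 14 days before surgery and afterwards, and the other mice received saline on the same schedule. By the paper, the middle of 3 tested doses was carried into later experiments, but neither the dose nor the time of collection is stated for the sequenced mice themselves.

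Chondroitin sulfate proteoglycans of the brain matrix are core proteins that carry sulfated sugar chains. The 4 lecticans (neurocan, brevican, aggrecan and versican) bind hyaluronan at one end, where link proteins such as Hapln1 lock the bond, and tenascins at the other, and together these form the loose neuropil matrix and the dense perineuronal nets around some neurons. After injury, reactive astrocytes, oligodendrocyte precursors and invading cells rebuild this matrix around the lesion, and its proteoglycans are known as barriers to axon growth. Tenascin-C is scarce in the uninjured adult brain and abundant in wounds, whereas tenascin-R is made in adulthood mainly by oligodendrocytes and some neurons. CD44 is the main cell-surface receptor for hyaluronan and also binds osteopontin.

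Total counts per mouse ranged from 17960353 to 22216315 and normalization factors from 0.963 to 1.05. Levels within a gene are given in CPM, the standard scaling of its counts by the normalized library size of each mouse. Markers of brain cells were high in every mouse: the summed level of 8 neuron markers was 3939 to 7264 CPM and that of 8 astrocyte markers 4231 to 6474 CPM. Vehicle mice 1 and 2 stood apart from the other 10 in several marker sums. The sum of 6 neutrophil markers was 159 CPM in Vehicle mouse 1 and 39.8 CPM in mouse 2, against 0.646 and 4.63 CPM in Vehicle mice 3 and 4, 0.155 to 0.272 CPM in Sham and 0.256 to 0.816 CPM in LJP. The sum of 4 endothelial markers was 598 and 1239 CPM in Vehicle mice 1 and 2 against 154 to 295 CPM in the other 10 mice. Fewer cells of a type and less RNA per cell cannot be told apart in such tissue extracts. The tests of the 10 genes were repeated with each mouse left out.

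The genes whose levels moved most, with the promoter of each, are shown first because Cd44, Tnc and Vcan rose together after ischemia while Hapln1 fell. Each RefSeq window of build GRCm38.p6 runs 5′ to 3′ on the gene's strand from 250 bases before to 50 bases after the transcription start, and capitals mark a TATAAA or a GGGCGG on either strand (GGGCGG on the opposite strand reads CCGCCC). The windows lie at chr2:102901616-102901915 (minus strand) for Cd44, chr4:64046966-64047265 (minus strand) for Tnc, chr13:89742463-89742762 (minus strand) for Vcan and chr13:89540386-89540685 (plus strand) for Hapln1. The RefSeq starts of Vcan and Hapln1 lie within the gene bounds of the count table.
Cd44: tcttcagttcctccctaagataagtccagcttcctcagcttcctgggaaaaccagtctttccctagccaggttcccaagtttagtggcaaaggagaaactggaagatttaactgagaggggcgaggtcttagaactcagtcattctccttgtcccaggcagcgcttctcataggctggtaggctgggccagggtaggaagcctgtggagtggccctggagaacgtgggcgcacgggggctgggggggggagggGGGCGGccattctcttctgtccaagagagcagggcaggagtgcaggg
Tnc: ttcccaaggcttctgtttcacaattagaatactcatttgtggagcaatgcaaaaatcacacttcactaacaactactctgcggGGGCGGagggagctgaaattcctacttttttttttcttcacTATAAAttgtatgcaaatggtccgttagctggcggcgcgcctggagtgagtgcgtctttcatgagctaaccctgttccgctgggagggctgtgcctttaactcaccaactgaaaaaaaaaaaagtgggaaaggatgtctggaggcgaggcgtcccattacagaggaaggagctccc
Vcan: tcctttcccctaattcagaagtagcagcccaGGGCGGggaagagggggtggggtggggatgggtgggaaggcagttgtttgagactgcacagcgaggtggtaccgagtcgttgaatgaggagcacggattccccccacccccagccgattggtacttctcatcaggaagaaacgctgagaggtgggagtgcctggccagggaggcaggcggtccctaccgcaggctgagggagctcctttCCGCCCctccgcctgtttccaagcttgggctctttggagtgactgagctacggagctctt
Hapln1: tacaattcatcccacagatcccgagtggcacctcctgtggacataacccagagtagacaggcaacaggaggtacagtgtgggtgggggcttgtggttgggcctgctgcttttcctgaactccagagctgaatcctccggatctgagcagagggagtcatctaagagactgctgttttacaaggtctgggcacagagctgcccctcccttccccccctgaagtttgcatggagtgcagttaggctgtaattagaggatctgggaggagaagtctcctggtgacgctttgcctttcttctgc

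A window was found for all 10 genes. The GC box GGGCGG was present in 8 of the 10 and in 35.7% of all 32851 windows of this length, and Tnr and Hapln1 were those without it. The TATA box TATAAA was present in 2 of the 10, Tnc and Ncan, and in 13.6% of all windows. Letters of 3 motifs of injury-related factors were in none of the 10 windows: AP-1 (TGANTCA, in 7.81% of all windows), STAT (TTCNNNGAA, in 8.3%) and NF-kappa B (GGGANTTTC, in 1.11%). All motifs were searched on both strands. A match is a string of letters and not a bound site, and its absence says only that these letters are not in these 300 bases. The windows of Hapln1 and Tnr held 3 CpG each and that of Cd44 held 6, against a median of 7 over all windows, while Tnc held 10, Vcan 12, Bcan 24, Ptprz1 29 and Acan 31.

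Between genes, levels can be compared only per length, here as CPM per kilobase of the length listed in the count table. In Sham mice, neurocan and brevican led at 49.9 ± 1.92 and 49.3 ± 1.59 CPM per kilobase (SD, n = 4), a difference within their spread, followed by Ptprz1 at 15.5 ± 0.976. Cspg4 (3.62 ± 0.267), Hapln1 (3.25 ± 0.490) and Tnr (2.95 ± 0.224) came next, each within the spread of its neighbour. Vcan (0.964 ± 0.0632) and Acan (0.819 ± 0.0797) were lower, and Tnc (0.558 ± 0.122) and Cd44 (0.305 ± 0.0576) were the lowest of the 10. The listed length of Tnr, 70178 bases against 5162 to 15696 for the other 9, lowers its value per kilobase. In Vehicle mice the order changed: Tnc (11.4 ± 8.96) and Cd44 (8.63 ± 3.76) stood next below Ptprz1 (13.4 ± 3.72), with overlapping spreads, and above Cspg4 (4.4 ± 1.32), although the spreads of both overlapped that of Cspg4. In LJP mice Cd44 (4.53 ± 1.87) was level with Cspg4 (4.44 ± 0.714), and Tnc (2.33 ± 1.93) with Hapln1 (2.64 ± 0.141) and Tnr (2.76 ± 0.143).

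**Figure D1:**
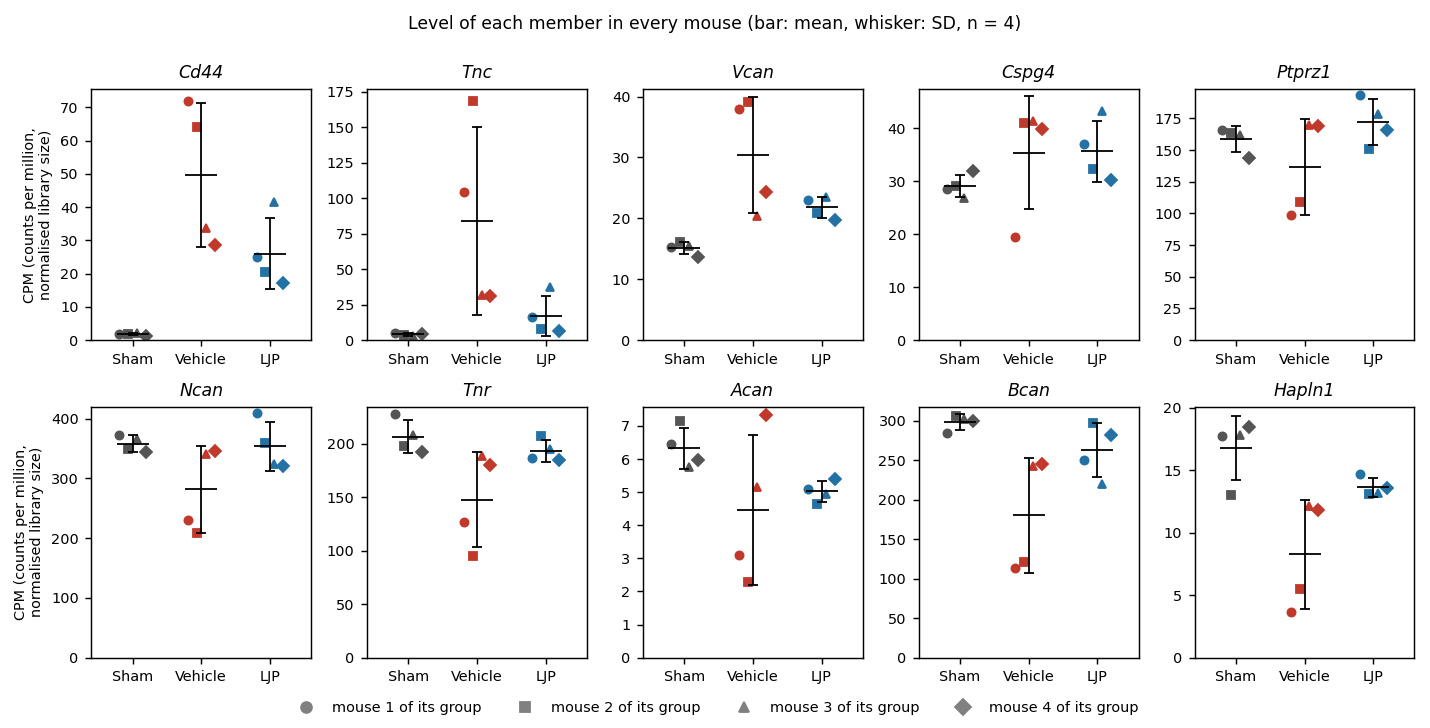
Level of each of the 10 genes in every mouse, in CPM on linear axes that start at 0; each marker is 1 mouse, the horizontal bar the group mean and the whisker the SD (n = 4). Cd44, Tnc and Vcan were higher in all 4 Vehicle mice than in any Sham mouse, Bcan, Tnr and Hapln1 lower, where 39.5% of all genes tested did not overlap between these groups, and Vehicle mice 1 and 2 lay farthest from Sham in each of these 6 panels.

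To describe what ischemia/reperfusion did to these genes, Vehicle was compared with Sham. Cd44, Tnc and Vcan rose, Bcan, Tnr and Hapln1 fell, and Ncan, Acan, Cspg4 and Ptprz1 did not pass the test (edgeR quasi-likelihood test, Benjamini-Hochberg adjusted p under 0.05 over 17558 genes). In this comparison 39.9% of all genes tested were called, 22.7% as higher and 17.3% as lower, so that 6 of 10 genes, 3 in each direction, is to be read against that wide response. The same 6 genes were those whose Vehicle and Sham mice did not overlap in CPM, as was so for 39.5% of all genes tested. The median log2 fold change of the 10 genes was −0.28, against 0.00 over all genes tested.

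Cd44 had the largest change of the 10. Its gene lies on chr2:102811141-102901669 (minus strand; Entrez 12505; GRCm38). It was at 1.85, 1.80, 2.08 and 1.30 CPM in Sham mice 1 to 4 and at 72.0, 64.1, 33.7 and 28.6 CPM in Vehicle mice 1 to 4. Every Vehicle mouse was far above every Sham mouse, and Vehicle mice 1 and 2 were higher than mice 3 and 4. The log2 fold change was 4.82 ± 0.392 (SE), a 28.2-fold rise (edgeR adjusted p = 4.62e-05). It was 4.58 to 5.01 when any 1 of the 12 mice was left out.

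Tenascin-C, an oligomeric matrix protein that binds integrins and the lecticans, lies on chr4:63959785-64047015 (minus strand; Entrez 21923). It was at 5.07, 3.71, 3.07 and 4.61 CPM in Sham and at 104, 169, 31.9 and 31.1 CPM in Vehicle. The groups did not overlap, and the Vehicle mice themselves spanned 5.41-fold. The rise was 20.4-fold, or 4.35 ± 0.685 on the log2 scale (edgeR adjusted p = 0.000749). Leaving out Vehicle mouse 1 gave 4.23 (edgeR adjusted p = 0.00199), and leaving out Vehicle mouse 2, the highest, gave 3.76 (edgeR adjusted p = 0.000576). The long noncoding RNA 8030451A03Rik overlaps Tnc on the opposite strand and moved with it, at 6 to 11 counts in Sham and 300, 485, 91 and 62 counts in Vehicle. The strand setting of the counting is not given in the sources used here, so reads of the pair cannot be told apart, although Tnc itself had 56 to 89 counts in Sham and 578 to 3925 in Vehicle.

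Versican, the lectican of early development, of vessel walls and of oligodendrocyte precursors, lies on chr13:89655309-89743027 (minus strand; Entrez 13003). It was at 15.3, 16.1, 15.4 and 13.7 CPM in Sham and at 38, 39.1, 20.4 and 24.3 CPM in Vehicle. It was the single lectican that rose, and its lowest Vehicle mouse was above the highest Sham mouse. The rise was 2.01-fold, or 1.01 ± 0.183 on the log2 scale (edgeR adjusted p = 0.00161), and 0.86 to 1.16 when any 1 mouse was left out.

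Brevican, a lectican made by astrocytes and abundant at synapses and perineuronal nets, lies on chr3:87987531-88002175 (minus strand; Entrez 12032). It was at 284, 306, 303 and 300 CPM in Sham and at 114, 120, 242 and 245 CPM in Vehicle. The Sham mice were nearly alike, with a coefficient of variation of 3.22%, while the Vehicle mice formed a low pair, mice 1 and 2, and a pair only somewhat below Sham. The mean fell 1.65-fold, with a log2 ratio of −0.73 ± 0.226 (edgeR adjusted p = 0.0229). The call was lost without Vehicle mouse 1 (−0.56, edgeR adjusted p = 0.0521) and without Sham mouse 3 (−0.72, edgeR adjusted p = 0.0512).

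Hapln1, the link protein that stabilises the bond between lecticans and hyaluronan in perineuronal nets, lies on chr13:89540529-89611832 (plus strand; Entrez 12950), next to Vcan on the same chromosome. It was at 17.8, 13, 17.9 and 18.5 CPM in Sham and at 3.63, 5.46, 12.1 and 11.9 CPM in Vehicle. All Vehicle mice were below all Sham mice, by little in mice 3 and 4. It had the largest fall of the 10, 2.04-fold, or −1.03 ± 0.305 on the log2 scale (edgeR adjusted p = 0.0182), and stayed called with any 1 mouse left out (−1.28 to −0.78).

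Tenascin-R, which crosslinks lecticans in perineuronal nets and at nodes of Ranvier, lies on chr1:159523729-159931729 (plus strand; Entrez 21960). It was at 228, 198, 208 and 193 CPM in Sham and at 127, 95.2, 189 and 180 CPM in Vehicle. The groups did not overlap, but Vehicle mouse 3 was close to the lowest Sham mouse. The fall was 1.40-fold, or −0.49 ± 0.171 on the log2 scale (edgeR adjusted p = 0.0386), and the call was lost in 8 of the 12 fits that left out 1 mouse, with log2 fold changes of −0.63 to −0.33. The lost calls were those without any of Sham mice 1 to 4 (edgeR adjusted p = 0.105, 0.0627, 0.0797 and 0.0554), without Vehicle mouse 1 (0.0975) and without LJP mouse 1, 3 or 4 (0.0511, 0.0505 and 0.0507).

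When Vehicle and Sham were fitted without the LJP mice, Cd44, Tnc and Vcan stayed called, while Bcan (edgeR adjusted p = 0.0589), Hapln1 (0.0564) and Tnr (0.0948) were not. Scaling by library size alone also ended the call of Tnr (edgeR adjusted p = 0.0602) and moved the genes called over the whole table from 3982 higher and 3032 lower to 4737 higher and 2299 lower.

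The remaining genes overlapped between the groups. Neurocan (chr8:70093085-70120863, minus strand; Entrez 13004), the astrocyte and neuronal lectican of the growing brain, was at 373, 349, 366 and 344 CPM in Sham and at 231, 208, 341 and 347 CPM in Vehicle (log2 fold change −0.35 ± 0.154, edgeR adjusted p = 0.0881). Two-sided exact permutation of the mice gave p = 0.0571 for neurocan. It was called without Vehicle mouse 3 (−0.45, edgeR adjusted p = 0.0333) and without mouse 4 (−0.46, edgeR adjusted p = 0.0297), that is, when 1 of the mice near Sham was removed.

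Aggrecan (chr7:79053226-79115099, plus strand; Entrez 11595), the core proteoglycan of perineuronal nets, was at 6.46, 7.14, 5.75 and 5.96 CPM in Sham and at 3.09, 2.28, 5.17 and 7.33 CPM in Vehicle. Vehicle mouse 4 had the highest aggrecan of the 12 and mouse 2 the lowest. The log2 fold change was −0.51 ± 0.284 (edgeR adjusted p = 0.167), −0.30 without Vehicle mouse 2 and −0.86 without Vehicle mouse 4 (edgeR adjusted p = 0.0144).

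The receptor phosphatase Ptprz1 (chr6:22875315-23052916, plus strand; Entrez 19283), whose secreted splice form is phosphacan, was at 166, 163, 162 and 144 CPM in Sham and at 99.1, 109, 170 and 169 CPM in Vehicle. Its log2 fold change was −0.22 ± 0.162 (edgeR adjusted p = 0.298; −0.34 to −0.09 with 1 Vehicle mouse left out). The 4 mice of the Vehicle group again formed pairs, with mice 3 and 4 above the highest Sham mouse.

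Cspg4, the NG2 proteoglycan of oligodendrocyte precursors and pericytes (chr9:56865104-56899870, plus strand; Entrez 121021), was at 28.6, 29.1, 26.8 and 32.0 CPM in Sham and at 19.5, 40.9, 41.4 and 39.8 CPM in Vehicle. Here a single Vehicle mouse, number 1, was below all Sham mice and the other 3 above them. The log2 fold change was 0.28 ± 0.202 (edgeR adjusted p = 0.281), and it became 0.48 without Vehicle mouse 1 (edgeR adjusted p = 0.00923).

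**Figure D2:**
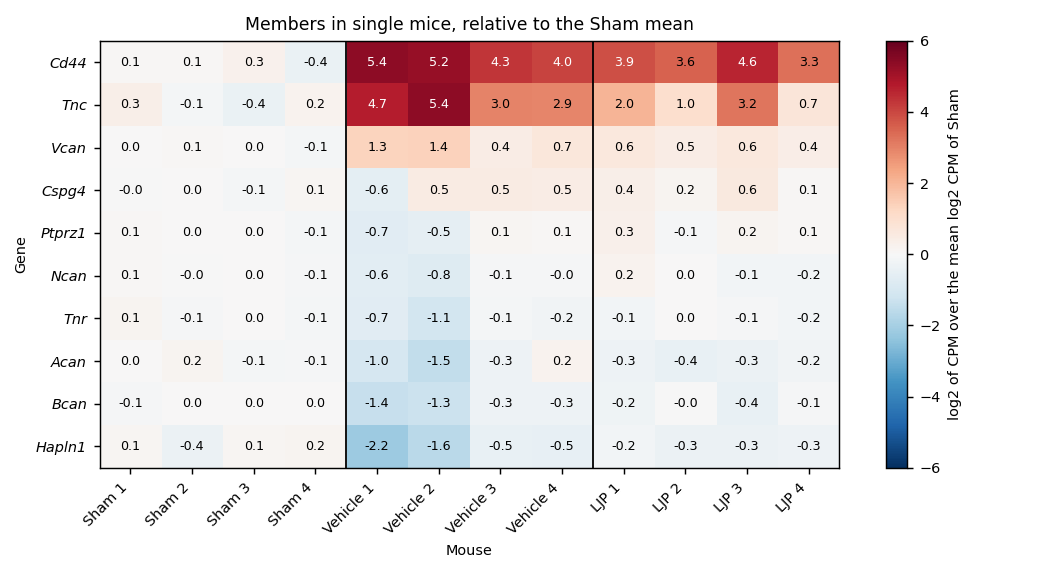
Level of each gene in each of the 12 mice on a log2 scale, relative to the mean log2 CPM of the 4 Sham mice; colour and printed value give the same quantity, and black lines part the Sham, Vehicle and LJP mice. Vehicle mice 1 and 2 differed most from Sham in both directions, and LJP mouse 3 had the highest Cd44 and Tnc of its group.

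The balance of these mRNAs in each mouse was described by ratios of counts per kilobase. The protein in the matrix was not measured. Versican over brevican was 0.0196 ± 0.00138 in Sham and 0.129, 0.125, 0.0325 and 0.0383 in Vehicle mice 1 to 4. All Vehicle mice were above all Sham mice, with a wide gap between the first pair and the second. In LJP mice the ratio was 0.0355, 0.0270, 0.0412 and 0.0271, above Sham and next to Vehicle mice 3 and 4.

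Tenascin-C over tenascin-R was 0.189 ± 0.0388 in Sham, 7.82, 16.9, 1.61 and 1.65 in Vehicle, and 0.845, 0.371, 1.82 and 0.339 in LJP. Because of the listed length of Tnr, the order of the groups in this ratio can be read but not its distance from 1. All Vehicle and LJP mice exceeded all Sham mice, and LJP mouse 3 lay within the Vehicle group.

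As a share of the 4 lecticans, neurocan made up 49.4 ± 1.61% in Sham, 55.5 ± 3.24% in Vehicle and 52.0 ± 4.06% in LJP, and brevican 48.8 ± 1.60%, 40.6 ± 4.73% and 45.8 ± 4.18%. Versican made up 0.955 ± 0.0543% in Sham, 4.5, 4.82, 1.45 and 1.70% in Vehicle mice 1 to 4, and 1.48 ± 0.216% in LJP. Aggrecan stayed between 0.571 and 1.04% in all 12 mice. The lectican mRNA was thus almost entirely neurocan and brevican in all groups, and versican was the lectican whose mRNA share differed most relative to its Sham mean. These shares are a description and were not tested.

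**Figure D3:**
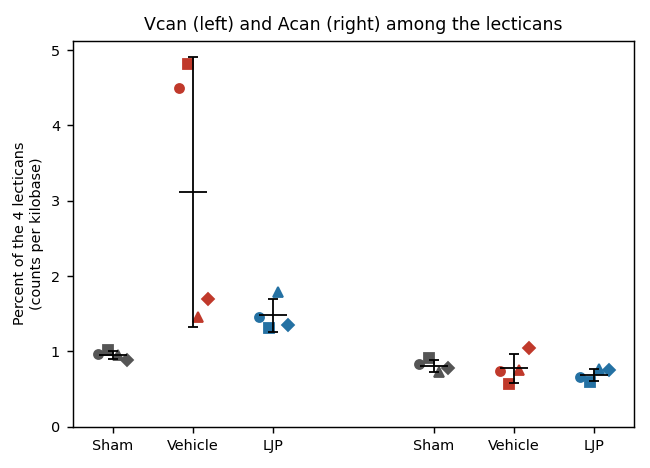
Versican (left 3 groups) and aggrecan (right 3 groups) as a percentage of the 4 lecticans in counts per kilobase; each marker is 1 mouse, the horizontal bar the mean and the whisker the SD (n = 4), and marker shapes give mouse 1 (circle), 2 (square), 3 (triangle) and 4 (diamond) of a group. Versican reached 4.82% in Vehicle mouse 2 against at most 1.01% in Sham, while aggrecan overlapped among the groups.

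Marker levels of several cell types moved with these genes. The summed level of 6 monocyte and macrophage markers was 9.97 to 15.5 CPM in Sham and 229, 323, 55.2 and 104 CPM in Vehicle. All 5 that could be tested were higher. Of these, Ccr2 (2 to 6 counts in Sham) and Ms4a7 (2 to 7) passed the filter only through the groups where they were high. They could thus be called only as higher and add nothing to that count. The counts of markers called stand against the 39.9% of all genes called (22.7% higher and 17.3% lower). Of 7 microglia markers, 6 were higher in Vehicle. The sum of 5 fibroblast markers was 51.4 to 55.9 CPM in Sham and 118, 1255, 114 and 223 CPM in Vehicle, with all 4 tested markers higher. The monocyte and macrophage sum and the fibroblast sum were highest in Vehicle mouse 2, the mouse with the highest Tnc and Vcan. In the other direction, the sum of 8 neuron markers was 6489 to 7264 CPM in Sham and 5386, 3939, 6254 and 5984 CPM in Vehicle, with 3 called lower and 5 not called. The sum of 4 markers of neurons with perineuronal nets was 469 to 501 CPM in Sham and 296, 235, 404 and 394 CPM in Vehicle, with 2 called lower. The part of these cells in the changes of Cd44, Tnc, Vcan, Bcan, Tnr and Hapln1 was not tested. For the cells that make much of this matrix, 2 of 8 astrocyte markers were higher and 1 lower. Gfap rose by 3.87 on the log2 scale, from 141 CPM on average in Sham to 2066 CPM in Vehicle. Aldh1l1 rose by 1.12, and Slc1a2 differed by −0.76. Of the precursor markers 1 of 7 was higher, of the oligodendrocyte markers 1 of 6 and of the pericyte markers 3 of 6. None of the lists had a marker at 0 in all 12 mice, and 4 T cell markers summed to at most 0.945 CPM in any mouse.

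To describe the effect of LJP on these genes after ischemia, LJP was compared with Vehicle, which shares the Vehicle mice with the comparison above. No gene of the 10 passed the edgeR test, in which only 0.0228% of all genes tested were called (4 genes, all lower, 0.0228%). Tnc, Cd44 and Vcan had lower means in LJP and Hapln1, Bcan, Tnr, Ptprz1, Ncan, Acan and Cspg4 higher ones. At an unadjusted p under 0.05, 6 of the 10 differed (3 in each direction), against 29.7% of all genes. DESeq2 called 2 of them, Tnc (adjusted p = 0.0154) and Cd44 (adjusted p = 0.0382), both lower, where it called 12.6% of all genes. Applied to the edgeR fit, the cut-offs that the study's methods set on DESeq2, unadjusted p under 0.01 and a log2 change of more than 0.58 in either direction, took in 1 of the 10, Tnc, and 6.97% of all genes (5.89% as lower). Applied to DESeq2, which was added after seeing the data, they took in Tnc and Cd44 and 5.66% of the 30195 genes to which DESeq2 gave a p.

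Tnc was at 16.6, 8.08, 37.4 and 6.58 CPM in LJP mice 1 to 4, against 104, 169, 31.9 and 31.1 CPM in Vehicle. In LJP mice 1, 2 and 4 it was below all Vehicle mice, and LJP mouse 3 was above Vehicle mice 3 and 4. The mean was 4.90-fold lower, a log2 difference of −2.29 ± 0.607 that missed the threshold (edgeR adjusted p = 0.0678). It was −3.00 to −1.70 when 1 mouse was left out. The overlapping 8030451A03Rik differed by −2.30 ± 0.615 (edgeR adjusted p = 0.0680).

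Cd44 was at 25.1, 20.4, 41.4 and 17.2 CPM in LJP, with 3 mice below all Vehicle mice and mouse 3 above Vehicle mice 3 and 4. The log2 difference from Vehicle was −0.93 ± 0.314 (edgeR adjusted p = 0.0915), a mean 1.91-fold lower. Two-sided exact permutation of the 8 mice gave p = 0.114 for Cd44 and p = 0.0857 for Tnc, where the smallest possible value is 0.0286.

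Vcan was at 23.1, 20.9, 23.5 and 19.8 CPM in LJP, a narrow range that took in Vehicle mouse 3 and lay below the other 3 Vehicle mice (log2 difference −0.48 ± 0.181, edgeR adjusted p = 0.111). Hapln1, at 14.7, 13.1, 13.2 and 13.6 CPM, was the one gene of the 10 whose LJP and Vehicle mice did not overlap, all LJP mice being higher, and 11.7% of all genes tested did not overlap in this comparison. Its log2 difference was 0.73 ± 0.304 (edgeR adjusted p = 0.139; 0.48 without Vehicle mouse 1), with an exact two-sided permutation p of 0.0286, which is not adjusted over the 10 genes.

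Bcan, at 251, 298, 220 and 282 CPM, had LJP mouse 3 below Vehicle mice 3 and 4 and the others above all Vehicle mice (0.54 ± 0.226, edgeR adjusted p = 0.138). Tnr was at 187, 207, 196 and 185 CPM and also overlapped Vehicle mouse 3 (0.39 ± 0.171, edgeR adjusted p = 0.152; 0.23 without Vehicle mouse 2). For Ncan (410, 359, 324 and 321 CPM) and Ptprz1 (193, 151, 179 and 166 CPM) the log2 differences were 0.33 ± 0.154 and 0.33 ± 0.162 (edgeR adjusted p = 0.173 and 0.184). They were 0.21 to 0.44 for Ncan, lowest without Vehicle mouse 2, and 0.21 to 0.46 for Ptprz1, lowest without Vehicle mouse 1. Acan, at 4.65 to 5.41 CPM, differed by 0.18 ± 0.285 (edgeR adjusted p = 0.690). Cspg4, at 37.1, 32.4, 43.2 and 30.2 CPM, differed by 0.01 ± 0.201 (edgeR adjusted p = 0.972), and its sign depended on the scaling and on single mice.

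The outcome of this comparison rested on which Vehicle mice were used. Without Vehicle mouse 3, 6 of the 10 genes were called, with 21.6% of all genes tested: Tnc (−2.55, edgeR adjusted p = 0.0163), Vcan (−0.63, 0.0180) and Cd44 (−1.07, 0.0359) as lower and Hapln1 (0.98, 0.0414), Bcan (0.72, 0.0416) and Tnr (0.53, 0.0423) as higher. Without Vehicle mouse 4, 2 were called, Tnc (−2.56, edgeR adjusted p = 0.0310) and Cd44 (−1.12, 0.0375), with 11.7% of all genes. None of the 10 was called without Vehicle mouse 1 or without mouse 2. The median difference of the 10 genes was 0.25, against 0.00 over all genes tested.

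**Figure D4:**
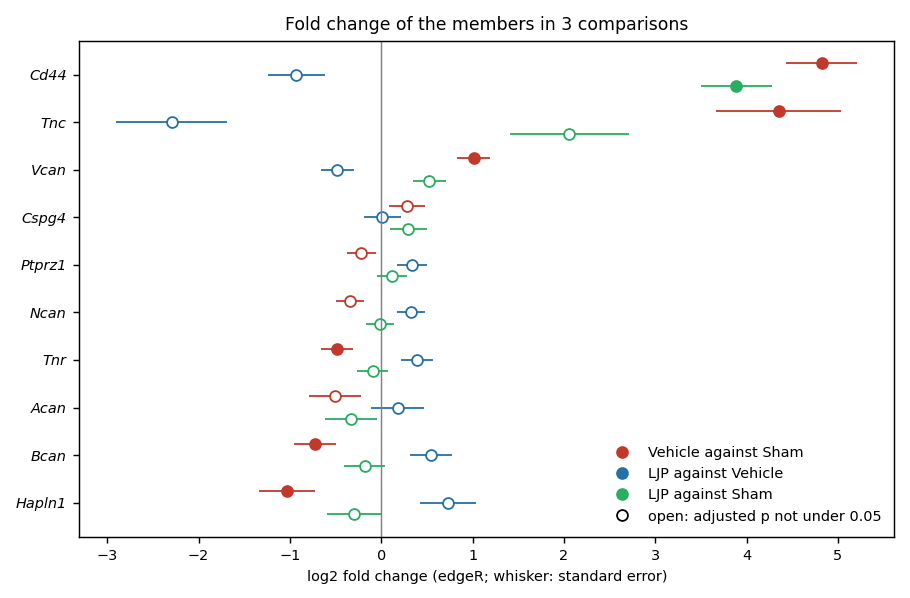
Log2 fold change (edgeR; whisker: standard error) of the 10 genes in Vehicle against Sham (red), LJP against Vehicle (blue) and LJP against Sham (green); filled points have an adjusted p under 0.05. The red points run from 4.82 for Cd44 to −1.03 for Hapln1 with 6 filled, no blue point is filled, and the single filled green point is Cd44 at 3.89.

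LJP mice were also compared with Sham, with which they share the Sham mice of the first comparison and the LJP mice of the second. Cd44 was the only gene of the 10 that passed the test, 14.8-fold higher in LJP (log2 fold change 3.89 ± 0.385, edgeR adjusted p = 0.000322), where 4.75% of all genes were called, 3.85% as higher. With 17.2 CPM in the lowest LJP mouse and 2.08 CPM in the highest Sham mouse, the groups were well apart. Tnc was 4.17-fold higher (2.06 ± 0.654, edgeR adjusted p = 0.1) and Vcan 1.44-fold higher (0.53 ± 0.183, edgeR adjusted p = 0.134), neither of them past the threshold, although in both genes all 4 LJP mice were above all Sham mice. Groups that did not overlap, 4 of the 10 genes with Cd44 and Acan, were seen for 24.9% of all genes tested. Without LJP mouse 3 the difference of Tnc was 1.35. When only LJP and Sham were fitted, Tnc (edgeR adjusted p = 0.00514) and Vcan (edgeR adjusted p = 0.00103) were called beside Cd44, with 23.8% of all genes. Without Vehicle mouse 2, which is in neither group but enters the filter, the scaling and the shared estimate of spread, Tnc (edgeR adjusted p = 0.0327) and Vcan (edgeR adjusted p = 0.0490) were called, with 13.3% of all genes, and Vcan also without Vehicle mouse 3 (edgeR adjusted p = 0.0484; 5.32% of all genes). Acan was lower in all LJP mice than in any Sham mouse (−0.33 ± 0.283, edgeR adjusted p = 0.58). The other 6 differed from Sham by −0.30 (Hapln1) to 0.29 (Cspg4), and the median of the 10 was 0.05. Of the cell markers, 6 of 7 for microglia were higher in LJP than in Sham (median 1.07). So were 2 of 8 for astrocytes, with Gfap at 3.47 (edgeR adjusted p = 6.04e-05), and 1 of 5 tested for monocytes and macrophages, Lyz2 (2.19). In the other lists tested 0 were called. The part of these cells in the difference of Cd44 was not tested.

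The spread among mice also differed between the groups. In Sham, highest over lowest was 1.08-fold for both Ncan and Bcan and at most 1.65-fold, for Tnc. In Vehicle it ran from 1.67-fold for Ncan to 5.41-fold for Tnc, and 3.34-fold for Hapln1. In LJP it was 1.12-fold for Hapln1 and Tnr and 5.69-fold for Tnc. In every one of the 10 genes the 4 Vehicle mice were thus more spread than the 4 Sham mice. The share of all genes with this order was not counted. Over the whole table, too, the Vehicle mice were less alike. The chi-square per degree of freedom between 2 mice of a group was 4.44 to 122 in Vehicle and 2.56 to 6.65 in Sham.

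The other genes of the pathway were taken from 9 lists of 82 genes, of which 79 could be tested. In Vehicle against Sham, 32 were higher and 12 lower, to be read, like the counts per list, against 39.9% of all genes called (22.7% higher and 17.3% lower). The enzymes that build chondroitin sulfate chains were called in both directions: of 12 for the chain, 2 were higher and 3 lower with a median log2 fold change of 0.00, and of 11 tested for its sulfation and epimerisation, 2 were higher and 2 lower with a median of 0.03. With 1 mouse left out, 2 to 7 chain genes were called (2 or 3 without any 1 Sham mouse or without Vehicle mouse 1 or 2) and 2 to 5 sulfation genes (2 without Sham mouse 1). Chsy3, a chondroitin synthase, fell by 0.72 on the log2 scale (SE 0.184, edgeR adjusted p = 0.00871), the kinase Fam20b by 0.32 and the linker enzyme B3galt6 by 0.40. The call of B3galt6 was lost without Sham mouse 2 (−0.38, edgeR adjusted p = 0.0540) and without Sham mouse 4 (−0.37, edgeR adjusted p = 0.0578). Among sulfation genes, the dermatan sulfotransferase Chst14 rose by 1.67, while the uronyl sulfotransferase Ust fell by 0.55 and Dsel by 0.39 (not called without Sham mouse 1, edgeR adjusted p = 0.0593).

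Of the hyaluronan genes, 9 of 12 were higher and 1 lower, with a median log2 fold change of 1.07. Has2 (3 or 4 counts in Sham) and Ptx3 passed the filter through the groups where they were high. They could thus be called only as higher, and their direction adds nothing to that count. Ptx3, a pentraxin that crosslinks hyaluronan matrix, was at 6 to 14 counts in Sham and at 634, 401, 66 and 120 counts in Vehicle mice 1 to 4. Ptx3 rose by 4.82 on the log2 scale (edgeR adjusted p = 0.000336), and by 4.20 to 5.14 with 1 mouse left out. The hyaluronidase Hyal2 rose by 1.20 (edgeR adjusted p = 0.00257), and the synthase Has3 was the gene that fell (−1.33, edgeR adjusted p = 0.00325).

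Proteases of the ADAMTS family that cut lecticans were higher in 4 of 6 and lower in none, with a median of 1.06. Adamts1 was at 224 to 282 counts in Sham and at 4159, 6044, 626 and 941 counts in Vehicle, or 3.28 on the log2 scale (edgeR adjusted p = 0.00125; 2.73 to 3.6 with 1 mouse left out). Adamts9 rose by 3.67 and Adamts5 by 1.42 (0.94 without Vehicle mouse 2). In each Vehicle mouse Adamts1 was above its Sham range, again most in mice 1 and 2. Of the other link proteins, Hapln2, made by oligodendrocytes, rose by 0.92 (0.61 without Vehicle mouse 2), and Hapln3 (0.40; 0.11 to 0.70 with 1 mouse left out) and Hapln4 (−0.15; −0.28 to −0.01) did not pass the test.

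The list of proteoglycan receptors, which also takes in partners of their signaling, had 1 of 7 called in each direction. Egfr was higher (0.55) and the Nogo receptor Rtn4r lower (−0.51), and Lingo1 at −0.59 just missed the threshold (edgeR adjusted p = 0.0511). The calls in this list were unstable: with 1 mouse left out, 0 to 3 of its genes were called. The call of Rtn4r was lost in 10 of 12 such fits, all but those without Vehicle mouse 3 or 4 (−0.66 to −0.36, edgeR adjusted p up to 0.101). That of Egfr was lost in 5 of 12, without Sham mouse 2, 3 or 4 or Vehicle mouse 1 or 2 (0.37 to 0.68, edgeR adjusted p up to 0.0679). Ligands of Ptprz1 were lower in 3 of 4 and higher in none, with a median of −0.48: pleiotrophin (Ptn) fell by 0.94 (edgeR adjusted p = 0.00423), contactin-1 (Cntn1) by 0.59 and Il34 by 0.38. Ligands and receptors of tenascins and of CD44 were higher in 6 of 9 tested and lower in none, with a median of 1.63. Osteopontin (Spp1) was at 119 to 191 counts in Sham and at 7151, 43938, 7372 and 6528 counts in Vehicle, and it rose by 6.51 on the log2 scale (edgeR adjusted p = 0.000477; 5.46 to 6.76 with 1 mouse left out). Sdc4, a syndecan, rose by 1.63 and the integrin subunit Itgb3 by 1.86. Among 15 other matrix proteoglycans and related proteins tested, 7 were higher and 2 lower with a median of −0.07, led by Sparc (1.65), Spock3 (−1.60) and Srgn (3.29). Lum of this list is also in the fibroblast list.

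**Figure D5:**
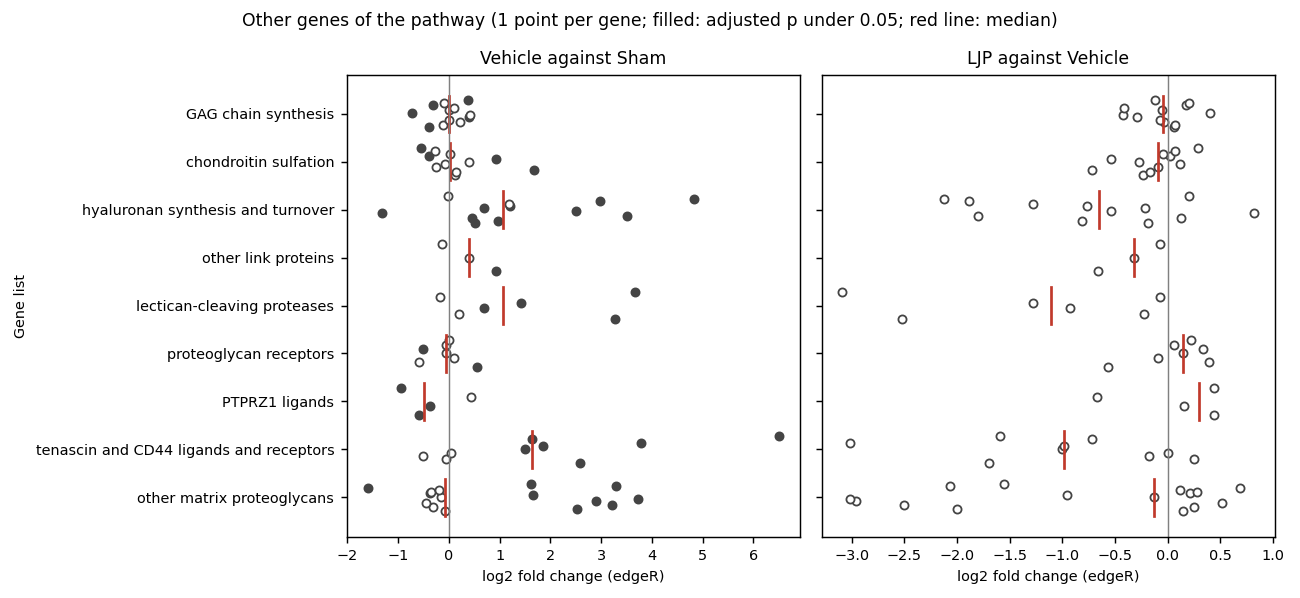
Log2 fold change (edgeR) of the other pathway genes in Vehicle against Sham (left) and LJP against Vehicle (right); each point is 1 gene, filled where its adjusted p was under 0.05, and the red line is the median of the list. On the left the medians of the hyaluronan, protease and tenascin and CD44 ligand lists lie above 1 and that of the Ptprz1 ligands is −0.48, and on the right no point is filled.

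In LJP against Vehicle, 0 of the 79 passed the edgeR test, 32 had an unadjusted p under 0.05 (5 higher and 27 lower; 29.7% of all genes) and DESeq2 called 22 (2 higher and 20 lower; 12.6% of all genes). Each list had 1 to 8 genes called without Vehicle mouse 3 (21.6% of all genes) and 0 to 7 without Vehicle mouse 4 (11.7% of all genes), and 0 without any of the other 10 mice. The median log2 differences were −1.10 for the proteases, −0.99 for the ligands and receptors of tenascins and CD44, −0.65 for the hyaluronan genes and −0.32 for the other link proteins. They were between −0.13 and −0.04 for the chain enzymes, the sulfation enzymes and the other matrix proteoglycans, 0.15 for the receptors and 0.30 for the Ptprz1 ligands. Adamts1 was at 525, 338, 685 and 260 counts in LJP and differed from Vehicle by −2.52, and Adamts9 by −3.09 and Adamts4 by −0.92. Other differences that did not pass the edgeR test were Ptx3 (−2.12), Lyve1 (−1.89) and Hyal2 (−0.77), Sdc1 (−3.02), Fn1 (−1.69) and Itgb3 (−0.99), and Hspg2 (−2.96), Srgn (−2.06) and Tnxb (−1.56). The smaller ones were Chsy1 (−0.43), Csgalnact2 (−0.42), Chsy3 (0.40), Chst14 (−0.72), Ust (0.29), Chst12 (−0.16), Egfr (−0.56), Rtn4r (0.33), Rtn4rl2 (0.22), Mdk (−0.67), Cntn1 (0.44), Ptn (0.44), Hapln2 (−0.66), Hapln3 (−0.32) and Hapln4 (−0.07). Leaving out 1 mouse moved 15 of these 27 values by more than 1.5 times, and leaving out Vehicle mouse 2 alone moved 13, among them Lyve1 (to −0.99), Fn1 (to −0.99), Hyal2 (to −0.41), Chst14 (to −0.29) and Mdk (to −0.23). The endothelial, fibroblast and monocyte and macrophage lists had medians of −2.05, −2.75 and −1.66 in this comparison, also with 0 genes called by edgeR. The neuron list and the list of neurons with perineuronal nets had medians of 0.28 (8 of 8 above 0) and 0.26 (3 of 4 above 0), likewise with 0 called. The medians were nearer 0 for microglia (0.02), astrocytes (0.09) and oligodendrocyte precursors (0.08). They were −0.15 for oligodendrocytes and −0.27 for pericytes, and 0 markers of these lists were called. The part of these cells in the differences, those of Bcan, Tnr and Hapln1 included, was not tested.

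In LJP against Sham, 4 of the 79 were higher and 1 lower, where 4.75% of all genes were called. These were Ptx3 (2.70, edgeR adjusted p = 0.0358) and Has1 (0.57, edgeR adjusted p = 0.0406) of the hyaluronan genes, Spp1 (4.92, edgeR adjusted p = 0.00687) and Sdc4 (0.92, edgeR adjusted p = 0.0444) of the ligands and receptors, and Spock3 (−0.92, edgeR adjusted p = 0.0441). Spp1, a ligand of Cd44, was thus still high in LJP mice, at 4661, 1101, 11835 and 1241 counts, with mouse 3 highest as for Cd44 and Tnc. Has1 and these others were named because the count was small, after their values were seen. Ptx3, Has1, Sdc4 and Spock3 lay near the threshold, and their calls with 1 mouse left out are not given here. Without 1 Sham mouse, 2.25 to 2.46% of all genes were called in this comparison. Ptx3, at 6 to 14 counts in Sham, could be called only as higher.

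The genes most like 4 of the 10 in their pattern over the 12 mice were found by Pearson's r of log2 CPM. The 12 mice are 3 groups, so that r mixes differences between groups with the spread within them. For Ncan the groups overlapped, and its Vehicle mice were at 231, 208, 341 and 347 CPM. These r are given as a description. For Cd44 they were Serpina3n (r = 0.994), a protease inhibitor of reactive astrocytes, Lilrb4a (0.991) and Flnc (0.990). For Tnc they were its overlapping 8030451A03Rik (0.997), Tgfbi (0.993), a matrix protein, and Cdc42se1 (0.988). For Ncan they were Zfp866, Cspg5 and Pou3f2 (0.974 each), and for Hapln1 they were Mrps21 (0.987), R3hdm1 (0.987) and Zbtb18 (0.984). By rank (Spearman's rho) these values were lower, at 0.937, 0.741 and 0.860 for Ncan and 0.860, 0.930 and 0.790 for Hapln1. Cspg5, neuroglycan C, is another brain chondroitin sulfate proteoglycan and was at 414, 332 and 396 CPM on average in Sham, Vehicle and LJP.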

How the data were processed

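Poly(A) RNA libraries from brain tissue of 12 mice (4 per group, 1 batch per the labels) were sequenced as paired-end reads. The study's methods name the tissue as ischemic hemispheres. The authors deposited raw counts per gene; the submitters' processing notes name featureCounts, DESeq2 and both GRCm39 and mm10, and gene positions match GRCm38.p6 for 39726 of 39756 genes. The aligner, strand setting and handling of shared reads are not given in the sources used here.

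Groups and mouse numbers came from the sample labels. The 10 genes and all lists were chosen with earlier results of these data known. The tests were run with edgeR 4.0.16 under R 4.3.3: filterByExpr (17558 genes), TMM factors, and a quasi-likelihood fit with 1 coefficient per group over all 12 mice. P-values were adjusted by Benjamini-Hochberg over all genes tested, and a gene was called at an adjusted p under 0.05. CPM use the normalized library size, and log2 CPM a prior count of 2. Exact permutation tests were two-sided over all 70 splits of 4 against 4 (smallest p 0.0286). DESeq2 1.42.0, the study's DESeq2 cut-offs applied to the edgeR fit (and, added after seeing the data, to DESeq2), other normalizations, no filter, a replicate block, pairs of groups and leaving out each mouse were alternatives. The scripts were tested on simulated data. Total counts were 17960353 to 22216315. Replicate pairs differed beyond counting noise (chi-square per degree of freedom 2.56 to 122.2). The edgeR tests set a group difference against a spread between mice that was estimated over all 3 groups, although the groups differed in spread. Named were the 10 genes, the 3 genes of each list with the smallest p in Vehicle against Sham and in LJP against Vehicle, markers that moved with a result, and the 3 genes most like Cd44, Tnc, Ncan and Hapln1. Promoter windows came from RefSeq (GRCm38.p6), and plots were drawn with matplotlib 3.10.9.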

Additional observations from a re-analysis of the deposited data

Results flagged for a closer look

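In 3 of the 30 sets of 4 mice (10 genes in 3 groups), the gap of an extreme mouse to its nearest neighbour, divided by the range of the group, exceeded Dixon's 95% critical value for 4 samples. Chance flags about 1 in 20 such groups, here 1.5. Cspg4 was lowest in Vehicle mouse 1, at 19.5 CPM against 39.8 to 41.4 CPM in the other 3 (gap over range 0.926). Hapln1 was lowest in Sham mouse 2, at 13 CPM against 17.8 to 18.5 CPM (0.865). Ptprz1 was lowest in Sham mouse 4, at 144 CPM against 162 to 166 CPM (0.838).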

How the results depend on the processing

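In Vehicle against Sham, 6 of the 10 genes were called (39.9% of all genes). That count was 3 at an adjusted p under 0.01 (22.1% of all genes) and 3 when only the 2 groups compared were fitted (30.7%), and 4 to 8 when 1 mouse was left out (4 without Sham mouse 3, 31.1%; 8 without Vehicle mouse 4, 42.7%). In LJP against Vehicle the count of 0 (0.0228% of all genes) became 1 with the study's cut-offs on the edgeR fit (6.97%) and 2 with them on DESeq2 (5.66%), 2 at an adjusted p under 0.1 (14.9%), 1 without the filter (1.96%), 2 with DESeq2 (12.6%) and 0 to 6 with 1 mouse left out (6 without Vehicle mouse 3, 21.6%; 2 without Vehicle mouse 4, 11.7%). In LJP against Sham the count of 1 (4.75% of all genes) became 2 with the study's cut-offs on the edgeR fit (5.9%) and 2 with them on DESeq2 (4.32%), 3 with only the 2 groups compared (23.8%), 2 with DESeq2 (7.85%) and 1 to 3 with 1 mouse left out (3 without Vehicle mouse 2, 13.3%; 2 without Vehicle mouse 3, 5.32%). The sign turned for Acan in LJP against Vehicle (0.18; -0.043 to 0.53 with 1 mouse left out), for Hapln4 in LJP against Vehicle (-0.07; -0.21 to 0.067), for Cspg4 in LJP against Vehicle (0.01; -0.010 with library size only; -0.19 to 0.10) and for Ncan in LJP against Sham (-0.02; 0.034 with library size only; -0.10 to 0.024). The cause was not tested.

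Mouse numbers did not pair the mice: deviations from the group means of same-numbered mice correlated at -0.32 to 0.11, over 0.1 in 1 of 12 pairs. With the replicate number as a block, 6, 0 and 1 of the 10 genes were called in the 3 comparisons, with 34.8%, 0.0114% and 2.64% of all genes. The study's cut-offs on DESeq2 were chosen after seeing the data.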
